A study of Homo sapiens with 9 samples.

Results

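The SOX genes encode transcription factors that bind DNA through an HMG domain related to that of SRY. The set described here holds 10 of them, SOX2, SOX3, SOX4, SOX5, SOX6, SOX8, SOX9, SOX11, SOX12 and SOX13, out of 36334 gene names on the array. Its probes are the spots other than controls that the array annotation assigns to these names, 12 of the 50598 probes. The members were chosen with the values of these same arrays known, in all 3 comparisons of the lines. The differences between lines are therefore given as a description of the members and not as a test.

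HEK293 cells, a human embryonic kidney line, stably carried HA-tagged MEK1, the kinase that phosphorylates ERK, in its WT form or with the F53S or the K57N substitution. F53S stood for the substitutions found in RASopathies, which are congenital disorders of RAS to ERK signaling, and K57N for those found in cancer. RNA of cells at steady state, from 3 experiments per line, was labeled with Cy3 and hybridized to 9 arrays. All 3 lines carried a transgene on top of the MEK1 of the host cell, and each construct was represented by 1 stable line, made by transfection and puromycin selection, so the effect of a substitution and a difference between lines of other origin cannot be told apart. Because RNA of whole cultures was measured, fewer cells expressing a gene and less RNA per cell cannot be told apart either.

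SOX factors are grouped by the similarity of their HMG domains. SOXB1 factors keep stem cells and neural progenitors undifferentiated, SOXC factors act in neuronal and mesenchymal progenitors as they differentiate, SOXD factors lack a transactivation domain and mostly assist other factors, and SOXE factors act in cartilage, gonad and neural crest. The factors generally act with a partner protein bound next to them, such as a POU or PAX factor, and ERK signaling is one of the inputs that can change their expression.

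Values are the log2 signal relative to the 75th percentile of the same array, so 0 is the signal at that percentile, and a difference of 1 is 2-fold. Signals of different probes cannot be compared as amounts of RNA. A gene was tested if, in 1 or more of the lines, its probe stood well above background on each of the 3 arrays. This held for 9 of the 10 members, and SOX5 was the exception. A gene was called if the adjusted p of limma (Benjamini-Hochberg over all probes tested) was below 0.05 and the change was over 2-fold.

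The regions before the start of 4 members are shown because they contrast 3 genes whose K57N arrays all lay below the WT arrays (SOX2, which was not called, SOX3 and SOX12) with a SOXC gene whose arrays overlapped between the lines (SOX4). Each run is the 250 bases before the annotated start, 5′ to 3′ on the strand of the gene, from RefSeq on GRCh38.p14. Capitals mark the letters CCAAT, the binding motif of NF-Y, or its reverse complement ATTGG.
SOX2, chr3:181711675-181711924, plus strand: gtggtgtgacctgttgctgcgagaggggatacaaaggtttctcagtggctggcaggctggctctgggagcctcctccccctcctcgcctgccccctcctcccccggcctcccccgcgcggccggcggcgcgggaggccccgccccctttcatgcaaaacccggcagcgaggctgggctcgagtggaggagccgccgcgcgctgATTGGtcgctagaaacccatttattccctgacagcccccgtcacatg
SOX3, chrX:140505070-140505319, minus strand: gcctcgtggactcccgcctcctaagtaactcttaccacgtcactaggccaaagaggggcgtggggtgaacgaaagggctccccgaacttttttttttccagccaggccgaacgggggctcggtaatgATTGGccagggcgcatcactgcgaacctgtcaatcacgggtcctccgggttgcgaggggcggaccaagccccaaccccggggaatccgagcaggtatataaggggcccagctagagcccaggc
SOX12, chr20:325302-325551, plus strand: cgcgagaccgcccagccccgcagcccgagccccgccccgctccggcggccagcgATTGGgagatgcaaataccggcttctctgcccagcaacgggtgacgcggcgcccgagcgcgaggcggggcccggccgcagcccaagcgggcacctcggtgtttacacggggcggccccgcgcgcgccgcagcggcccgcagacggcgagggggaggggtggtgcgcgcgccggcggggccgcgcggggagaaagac
SOX4, chr6:21593501-21593750, plus strand: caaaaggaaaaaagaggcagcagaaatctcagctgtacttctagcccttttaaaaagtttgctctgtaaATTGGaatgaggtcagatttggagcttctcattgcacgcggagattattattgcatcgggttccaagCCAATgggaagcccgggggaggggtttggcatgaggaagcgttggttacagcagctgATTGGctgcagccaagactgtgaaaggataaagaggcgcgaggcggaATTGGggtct

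CCAAT was found on either strand in all 4 windows, and 32% of the 35116 promoter windows of this length in the RefSeq table hold it. SOX4 had 4 matches and each of the other windows had 1, which began 47 bases before the start in SOX2, 123 bases before it in SOX3 and 196 bases before it in SOX12. GGGCGG, the GC box bound by SP factors, was present 3 times in SOX12, 1 time each in SOX2 and SOX3, and 0 times in SOX4, where 42.6% of all windows hold it. ATGCAAAT, the octamer bound by POU factors, was present 1 time in SOX12, against 1.6% of all windows, and was in none of the other 3. TATAAA, CCGGAAGT (an ETS motif) and AACAAT (a SOX motif) were in none of these 4 windows, and 10.7%, 3.4% and 9.0% of all windows hold them. Both strands were searched, and no base in the 4 windows belonged to 2 of these motifs. The matches describe the sequence and were not tested as sites. Among members not printed, SOX6 also had K57N arrays all below the WT arrays and was not called. It had GGGCGG in 1 of its 5 windows and CCAAT in 3. SOX13, whose arrays overlapped, had 1 GGGCGG and 0 CCAAT. SOX5, which was not tested, also had 1 GGGCGG and 0 CCAAT. The SOX motif AACAAT was in the SOX5 window and in 3 of the 5 SOX6 windows, and TATAAA in 3 of the 5 SOX6 windows. The RefSeq table held a window for 7 of the 10 members, those other than SOX8, SOX9 and SOX11.

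Across the family, K57N cells differed from WT cells in both directions, while no member was called in F53S cells. Comparing K57N with WT, limma called 3 of the 9 tested members lower (SOX3, SOX11 and SOX12) and 1 higher (SOX8), where 0.738% and 1.53% of all 19109 genes tested were called lower and higher. All 3 K57N arrays lay below all 3 WT arrays for 5 members and above them for 2, and the remaining 2 overlapped. Over all genes tested, the arrays lay apart in this way for 12.7% (lower) and 10.3% (higher). The members were picked from this comparison, so nothing is read from these counts. The median log2 difference over the 9 members was -0.80, and that over all genes was -0.06.

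**Figure D1:**
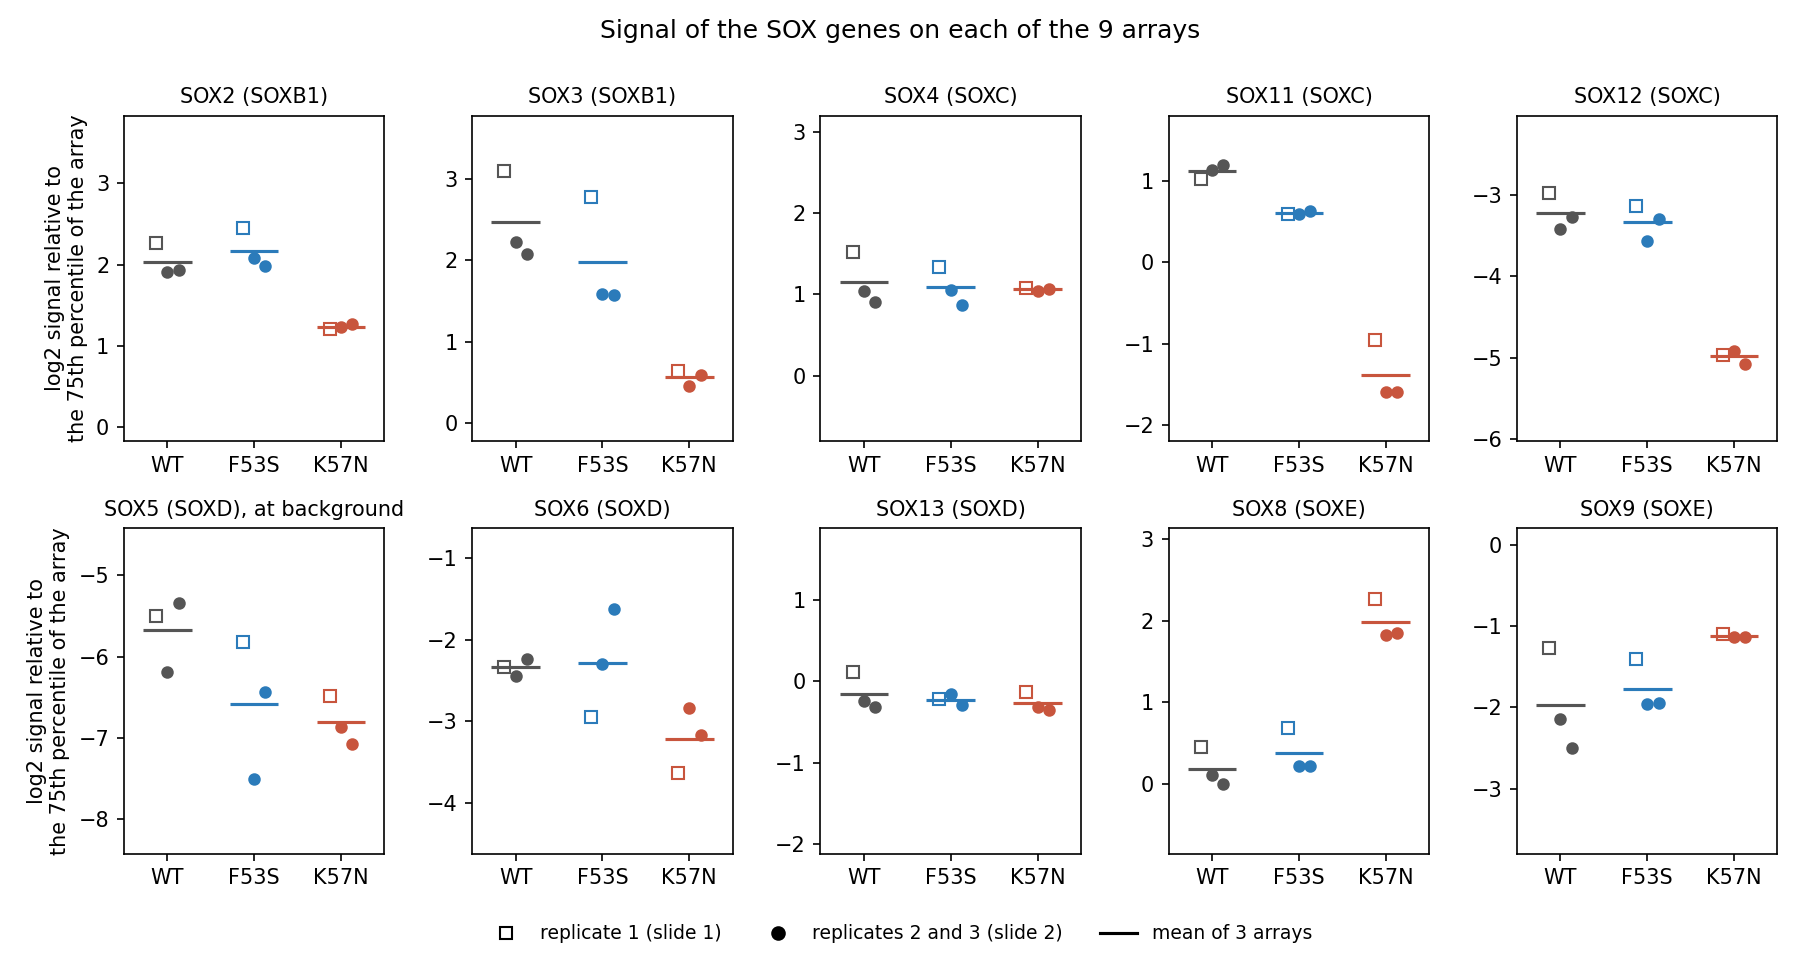
Log2 signal of each SOX gene relative to the 75th percentile of the array, for the representative probe, in the WT, F53S and K57N lines. Each symbol is 1 array, squares are slide 1, circles are slide 2, lines are means of 3 arrays, and each panel has its own vertical range. The K57N arrays lie below all WT arrays for SOX2, SOX3, SOX11, SOX12 and SOX6 and above them for SOX8 and SOX9, while SOX5 was not above background on any array.

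The SOXB1 genes SOX2 and SOX3, which share roles in neural progenitors, both had K57N arrays below all WT arrays, and SOX3 was called. SOX2, a factor of pluripotent and neural stem cells, had values of 2.27, 1.91 and 1.93 in WT, 2.45, 2.08 and 1.98 in F53S, and 1.21, 1.24 and 1.27 in K57N cells (chr3:181431877-181431936, hg19). The K57N arrays were the lowest 3 of the 9, and the F53S arrays overlapped the WT arrays. The difference from WT was -0.80 ± 0.18 (SE, n = 3) in K57N, which is 1.74-fold lower and was not called, and 0.13 ± 0.18 in F53S. SOX2-OT, the long non-coding transcript that overlaps SOX2, was not above background on any array.

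SOX3, an X-linked factor of neural progenitors and of pituitary development, had values of 3.09, 2.22 and 2.08 in WT, 2.77, 1.59 and 1.57 in F53S, and 0.64, 0.46 and 0.59 in K57N cells (chrX:139585248-139585306, hg19). All K57N arrays lay below the other 6, while F53S and WT overlapped, and in both of those lines replicate 1 was the highest. The difference between K57N and WT was -1.90 ± 0.38 (SE, n = 3), or 3.73-fold, and that between F53S and WT was -0.49 ± 0.38. Array by array, K57N was lower than the WT array of the same replicate number by a log2 difference of -2.45, -1.76 and -1.49. The SOX3 call was lost when any WT or K57N array was left out, or F53S replicate 2 or 3, with differences between -2.09 and -1.59. It was also lost without a filter on dim probes and with the methods' t-test after adjustment. The call was kept with the slide block, on slide 2 alone and with the replicate number as a block, where the SE was 0.22. SOX3 was called in 12 of the 22 settings.

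The 3 SOXC genes did not move as a block. SOX11, a factor of neuronal progenitors and immature neurons, had values of 1.02, 1.13 and 1.20 in WT, 0.59, 0.59 and 0.63 in F53S, and -0.96, -1.60 and -1.60 in K57N cells (chr2:5841428-5841487, hg19). The lines did not overlap, with WT highest, F53S between and K57N lowest. The difference from WT was -2.50 ± 0.20 (SE, n = 3), or 5.66-fold, in K57N and -0.51 ± 0.20, or 1.42-fold, in F53S. Between arrays of the same replicate number the K57N difference was -1.98, -2.72 and -2.80, and the F53S difference was -0.42, -0.53 and -0.57. The F53S difference was not called.

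SOX12, the SOXC factor regarded as the weakest activator of the 3, had a dim probe with values of -2.98, -3.42 and -3.27 in WT, -3.14, -3.56 and -3.30 in F53S, and -4.96, -4.91 and -5.07 in K57N cells (chr20:310276-310335, hg19). It stood well above background on each WT and F53S array and on none of the 3 K57N arrays, so the K57N signal is only bounded. SOX12 was at least 3.14-fold lower in K57N than in WT and at least 2.90-fold lower than in F53S, with fitted log2 differences of -1.75 ± 0.18 and -1.64 ± 0.18 (SE, n = 3). These bounds set each K57N array at the higher of its own value and the lowest signal well above background. With normexp background correction, which adds an offset to dim spots, the difference of K57N was -0.70 from WT and -0.71 from F53S, and neither was called. Neither could be called with the filter on all 9 arrays, which removes SOX12, and the call against F53S was also lost with the methods' t-test after adjustment.

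SOX4, a factor of heart, B cell and neural development, had values of 1.52, 1.04 and 0.91 in WT, 1.34, 1.05 and 0.87 in F53S, and 1.08, 1.04 and 1.07 in K57N cells (chr6:21598001-21598060, hg19). The 3 lines overlapped throughout. The log2 difference from WT was -0.09 ± 0.21 in K57N and -0.07 ± 0.21 in F53S (SE, n = 3), both smaller than the SD of 0.32 among the WT arrays. Between arrays of the same replicate number the K57N difference was -0.43, 0.00 and 0.15, so it had no common direction.

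None of the SOXD genes was called in any comparison. SOX5, a coactivator of SOX9 in cartilage, was not well above background on any of the 9 arrays, with values between -7.51 and -5.34, and was not tested (chr12:23685294-23685353, hg19). SOX6, which acts with SOX5 in cartilage and also in red cell development, had values of -2.33, -2.44 and -2.23 in WT, -2.95, -2.30 and -1.62 in F53S, and -3.64, -2.84 and -3.17 in K57N cells (chr11:15991795-15991854, hg19). Each K57N array was below every WT array, and 1 F53S array fell within the K57N range. The SOX6 difference from WT was -0.88 ± 0.34 in K57N and 0.05 ± 0.34 in F53S (SE, n = 3), and neither was called.

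SOX13, a regulator of gamma delta T cells, had 3 probes that disagreed in direction. The brightest probe had values of 0.11, -0.24 and -0.32 in WT, -0.22, -0.16 and -0.29 in F53S, and -0.13, -0.31 and -0.35 in K57N cells (chr1:204086258-204086317, hg19). Its difference between K57N and WT was -0.11 ± 0.17 (SE, n = 3). The probe at chr1:204096551-204096610 gave 0.45 ± 0.36, and the one at chr1:204088800-204088859 gave 0.25 ± 0.36. The arrays of K57N and WT overlapped for all 3 probes, and averaging the probes gave a difference of 0.20.

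The SOXE genes were the members whose K57N arrays lay above all WT arrays, and SOX8 was called. SOX8, a factor of neural crest, glia and testis, had values of 0.45, 0.10 and 0.00 in WT, 0.68, 0.21 and 0.22 in F53S, and 2.27, 1.82 and 1.85 in K57N cells (chr16:1036893-1036952, hg19). Every K57N array lay above the other 6, and F53S overlapped WT. The difference from WT was 1.80 ± 0.22 (SE, n = 3), or 3.48-fold, in K57N and 0.19 ± 0.22 in F53S. The K57N difference was nearly constant over the 3 replicate numbers, at 1.82, 1.72 and 1.86.

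SOX9, the main regulator of cartilage formation and of Sertoli cells, had values of -1.27, -2.14 and -2.50 in WT, -1.41, -1.96 and -1.95 in F53S, and -1.10, -1.13 and -1.13 in K57N cells (chr17:70121841-70121900, hg19). The K57N arrays lay above all the others, and replicate 1 was highest in both WT and F53S. The difference from WT was 0.85 ± 0.31 (SE, n = 3), or 1.80-fold, in K57N, which was not called, and 0.20 ± 0.31 in F53S. The K57N difference was 0.17 between the arrays of replicate 1, and 1.01 and 1.37 between those of replicates 2 and 3. Replicate 1 of each line was on slide 1 and the other replicates on slide 2. On the 6 arrays of slide 2 alone, the SOX9 difference between K57N and WT was 1.19 and was called.

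**Figure D2:**
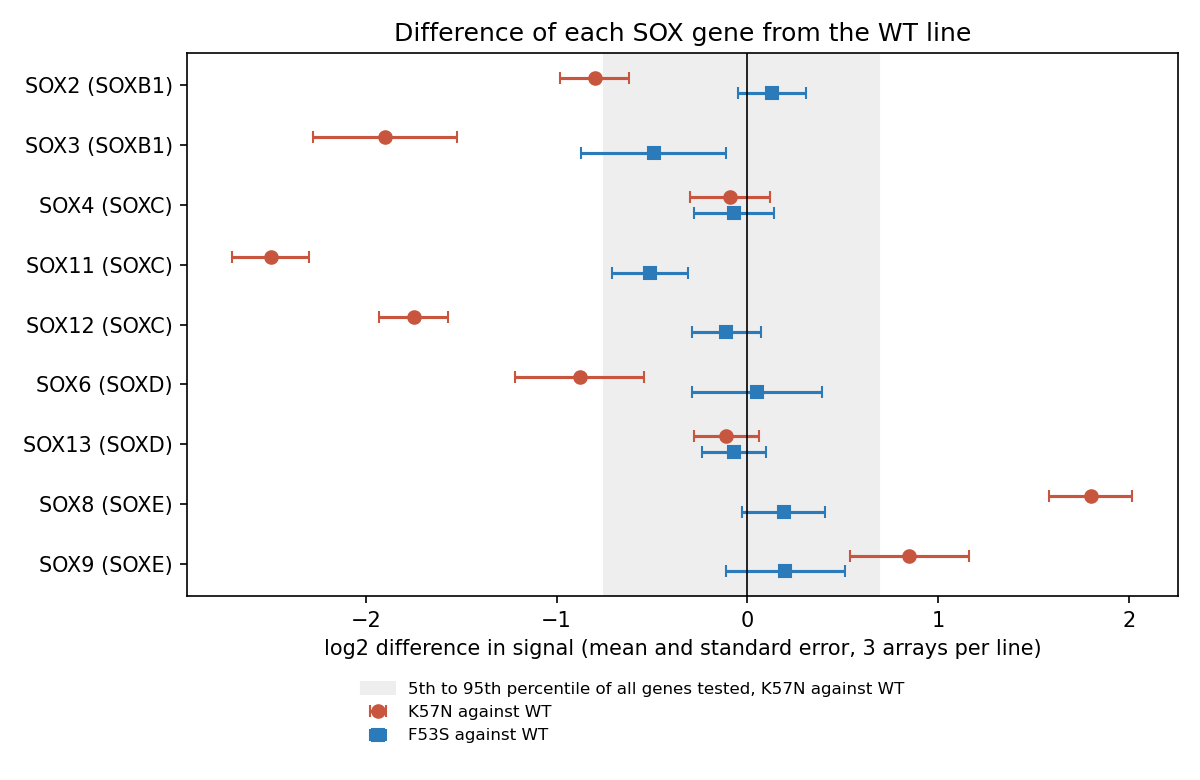
Log2 difference in signal from the WT line for the 9 tested SOX genes, K57N as circles and F53S as squares, with the standard error of the limma fit on 3 arrays per line. The grey band spans the 5th to the 95th percentile (-0.75 to 0.69) of the K57N differences of all 19109 genes tested. K57N values lie outside this band for SOX2, SOX3, SOX11, SOX12 and SOX6 on the low side and for SOX8 and SOX9 on the high side.

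F53S cells were compared with WT cells to ask whether the RASopathy substitution altered the same genes. None of the 9 tested members was called, and 0% of all genes tested were called lower and 0% higher. In this comparison limma called no gene on the array, while 5 genes were over 2-fold lower and 38 over 2-fold higher at an unadjusted p below 0.05, with none of the members among them. SOX11 was the sole member whose F53S arrays all lay below the WT arrays, and no member had all of them above, where 1.62% and 1.54% of all genes lay apart in these directions. The median log2 difference over the members was -0.07, against 0.01 over all genes. The 5th to the 95th percentile of the F53S differences of all genes was -0.28 to 0.30, and SOX11 and SOX3 lay below that range. Within the 3 pairs of arrays with the same replicate number, F53S was lower than WT each time for SOX3 (-0.32, -0.63 and -0.51), SOX11 and SOX12 (-0.16, -0.14 and -0.03). It was higher each time for SOX2 (0.19, 0.17 and 0.05) and SOX8 (0.24, 0.11 and 0.23), and the other 4 members had mixed signs.

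K57N was also set directly against F53S. SOX11 and SOX12 were called lower and SOX8 higher, where 0.246% and 0.958% of all genes tested were called in these directions. SOX11 was lower by a log2 difference of -1.99 ± 0.20 (SE, n = 3), and SOX8 was higher by 1.61 ± 0.22. The SOX3 difference of -1.41 ± 0.38 was not called, but it was called with the replicate number as a block, which left the difference as it was and lowered its SE to 0.22. SOX2, at -0.93 ± 0.18, was not called. The K57N arrays lay below all F53S arrays for 4 members (SOX2, SOX3, SOX11 and SOX12) and above them for 2 (SOX8 and SOX9), where 10.3% and 8.33% of all genes did. The SOX8 call in this comparison was lost without F53S replicate 2 or 3 or without any 1 of the K57N arrays. Both K57N comparisons use the same K57N arrays, and both comparisons with WT use the same WT arrays, so they are not independent.

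The SOXC genes were then compared with the other members. The mean log2 difference between K57N and WT was -1.45 over SOX4, SOX11 and SOX12, with single genes between -2.50 and -0.09. Over the other 6 tested members it was -0.17, with single genes between -1.90 and 1.80. SOX11 and SOX12 carried the SOXC mean, SOX4 stayed near 0, and SOX3 outside the group differed by -1.90 ± 0.38. The K57N values of SOX12 that enter the mean were not above background. The ranges of both groups overlapped.

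For each array, the mean of the other 6 members was subtracted from the mean of the 3 SOXC genes. This difference was -0.53, -0.32 and -0.21 in WT, -0.62, -0.55 and -0.59 in F53S, and -1.49, -1.70 and -1.71 in K57N cells. Its mean was -0.35 ± 0.16 in WT, -0.58 ± 0.04 in F53S and -1.63 ± 0.12 in K57N (SD, n = 3), so the K57N arrays stood apart from the other 6. The 3 F53S arrays also lay below the 3 WT arrays, by less. The SOXC mean went from -0.32 ± 0.15 in WT to -1.77 ± 0.14 in K57N, and the mean of the others went from 0.04 ± 0.30 to -0.14 ± 0.02, where positive differences of SOX8 and SOX9 offset negative ones of SOX2, SOX3 and SOX6, so the mean does not show how far single members moved. Since the genes were chosen with these values known, no p is given.

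**Figure D3:**
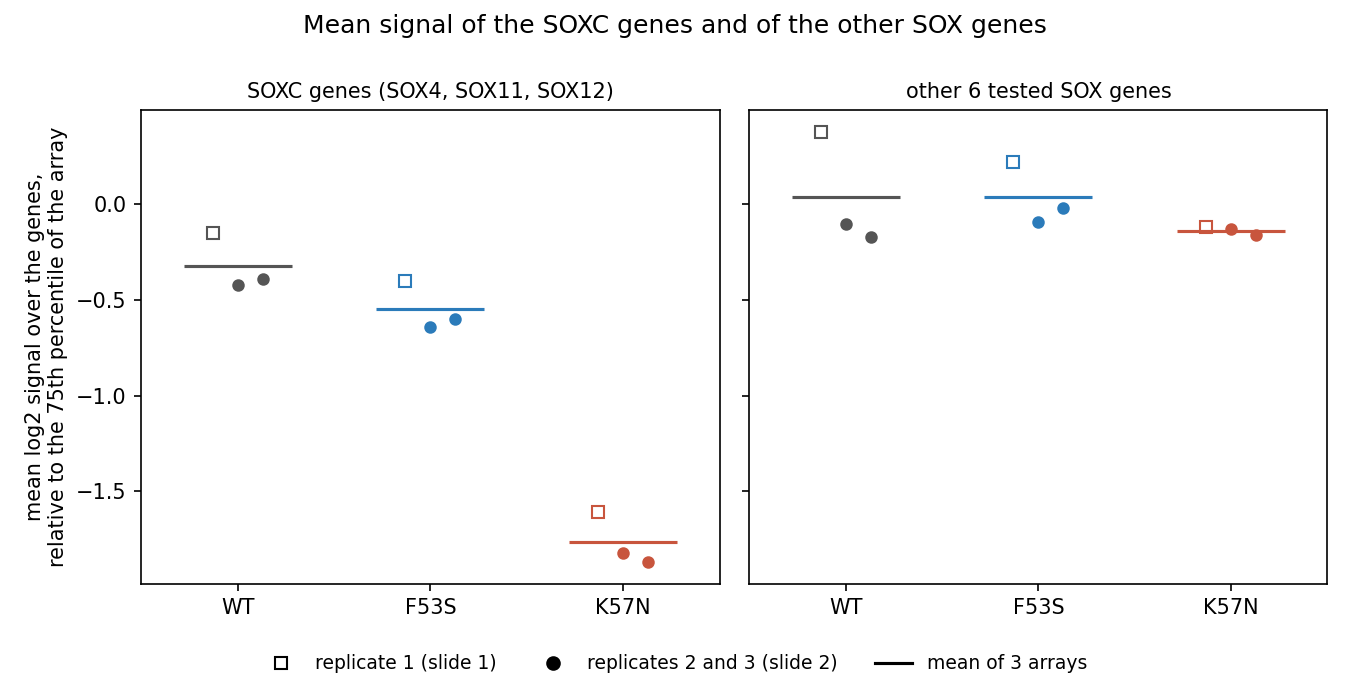
Mean log2 signal, relative to the 75th percentile of the array, of the 3 SOXC genes (left) and of the other 6 tested SOX genes (right) on each array of the WT, F53S and K57N lines. Squares are slide 1, circles are slide 2 and lines are means of 3 arrays. The SOXC mean of the K57N arrays lies between -1.87 and -1.61, below all the other arrays, whereas the means of the other members lie between -0.17 and 0.38 in all 3 lines.

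Over the 9 arrays, the members fell on 2 sides of SOX11. Pearson's r with SOX11 was 0.96 for SOX12, 0.87 for SOX3, 0.86 for SOX2 and 0.68 for SOX6. It was 0.32 for SOX13 and 0.14 for SOX4, the other SOXC gene, and it was -0.75 for SOX9 and -0.94 for SOX8. The 3 K57N readings of SOX12 were not above background, so its r rests partly on background readings. The arrays form 3 lines, so these values describe the order of the lines and carry no p. Among 16950 other genes well above background on all 9 arrays, the pattern most like SOX11 was that of FAM159B (r = 0.989), OPTN, the autophagy receptor optineurin (r = 0.986), TCEANC (r = 0.984), LYPD6 (r = 0.978) and KIAA0922 (r = 0.978). The most opposed were MAP3K14, the NIK kinase (r = -0.994), PERP, a desmosome component (r = -0.994), COL13A1, a transmembrane collagen (r = -0.989), APOLD1 (r = -0.989) and SRPX2 (r = -0.987). This order depends on the slides. With each slide centred on its own mean, the 5 most alike ranked 12, 24, 3, 46 and 30 of the 16950, and the 5 most opposed ranked between 16895 and 16948.

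Most other SOX genes did not pass the background filter. Of 9 further SOX genes on the array (SOX1, SOX7, SOX10, SOX14, SOX15, SOX17, SOX18, SOX21 and SOX30), SOX17, an endoderm and endothelial factor, was the only one that passed. The mean of SOX17 was 1.43 in the WT line, 1.60 in F53S and 1.71 in K57N, and its K57N difference of 0.29 ± 0.28 (SE, n = 3) was not called (adjusted p = 0.831, limma with Benjamini-Hochberg). SOX7 was well above background on 2 of the 3 arrays of each line, which the filter did not accept.

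Partner proteins decide which genes a SOX factor binds, and 15 of 17 listed partner genes were tested. POU3F2, a POU factor that works with SOX2 and SOX11 on neural enhancers, was called lower in K57N and was the only partner called, 1 of 15, where 0.738% of all genes tested were called lower. It had values of -0.58, -0.84 and -0.82 in WT, -0.90, -0.85 and -1.04 in F53S, and -1.86, -1.90 and -1.87 in K57N cells. All K57N arrays lay below the other 6. The difference between K57N and WT was -1.13 ± 0.15 (SE, n = 3), with an adjusted p of 0.00675 (limma, Benjamini-Hochberg). The POU3F2 call was lost with normexp background correction and without a filter on dim probes. The partners with the brightest probes differed little between K57N and WT: CTBP2 by -0.01 ± 0.15, CTNNB1, or beta-catenin, by 0.02 ± 0.32, LEF1 by 0.03 ± 0.14 and CTBP1 by -0.23 ± 0.28. The median over the 15 partners was 0.03, against -0.06 over all genes.

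Of 9 listed targets of SOXC factors, 6 were tested between K57N and WT, and 1 was called lower and 0 higher, where 0.738% and 1.53% of all genes tested were. Their median difference was 0.00, with the 6 genes between -1.91 and 1.08. MAP2, a microtubule protein of dendrites, had values of 0.09, 1.02 and 0.95 in WT and -1.62, -1.0 and -1.04 in K57N cells. In F53S cells 2 arrays gave -0.19 and 0.89, and the spot of the other was left out as an outlier. The K57N arrays were lower than every WT array, and the difference was -1.91 ± 0.38 (SE, n = 3), with an adjusted p of 0.0497 (limma, Benjamini-Hochberg). The MAP2 call was lost without WT replicate 2 or 3, F53S replicate 2 or 3, or any K57N array. It was also lost with quantile normalization, without a filter on dim probes, with the filter on all 9 arrays, in the deposited table and by the methods' t-test after adjustment.

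TUBB3, the neuronal beta-tubulin and a direct target of SOX4 and SOX11, had a higher value on the K57N array than on the WT array of each replicate number. It had values of 3.28, 1.08 and 1.06 in WT, 3.64, 1.32 and 1.28 in F53S, and 4.0, 2.29 and 2.37 in K57N cells. Replicate 1 was high in every line, so the lines overlapped, and the difference of 1.08 ± 0.85 (SE, n = 3) was not called (adjusted p = 0.75, limma with Benjamini-Hochberg). With the replicate number as a block, the SE was 0.16 and TUBB3 was called higher (adjusted p = 0.00759, limma with Benjamini-Hochberg). EZH2, PDGFA and TEAD2 differed by 0.01 ± 0.16, 0.00 ± 0.24 and -0.35 ± 0.25, and none of them was called.

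Of 8 listed SOXB1 targets, 4 were tested and 0 were called, with a median difference between K57N and WT of -0.18. UTF1, a chromatin factor of pluripotent cells, differed by -0.17 ± 0.51, NES, which encodes the progenitor filament nestin, by 0.49 ± 0.42, HES5, a Notch effector, by -0.20 ± 0.42 and FBXO15 by -0.80 ± 0.30 (SE, n = 3). Of 15 listed SOXD and SOXE targets, 9 were tested and 0 were called, with a median of 0.01. COL2A1, the cartilage collagen that SOX9 activates, differed by -0.36 ± 0.40. MITF, the melanocyte regulator, differed by 0.15 ± 0.43, COL11A2 by -0.50 ± 0.87 and AMH, anti-Müllerian hormone, by 0.01 ± 0.33. In the comparisons of F53S with WT and of K57N with F53S, limma called no listed partner or target gene over the 9 arrays with no block. With the replicate number as a block it called MAP2 lower in K57N than in F53S (-1.68 ± 0.13, SE, adjusted p = 0.00265, limma with Benjamini-Hochberg). MAP2 was also called lower in that comparison with the slide block, on slide 2 alone and by the methods' t-test without adjustment, and TUBB3 was called higher on slide 2 alone.

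**Figure D4:**
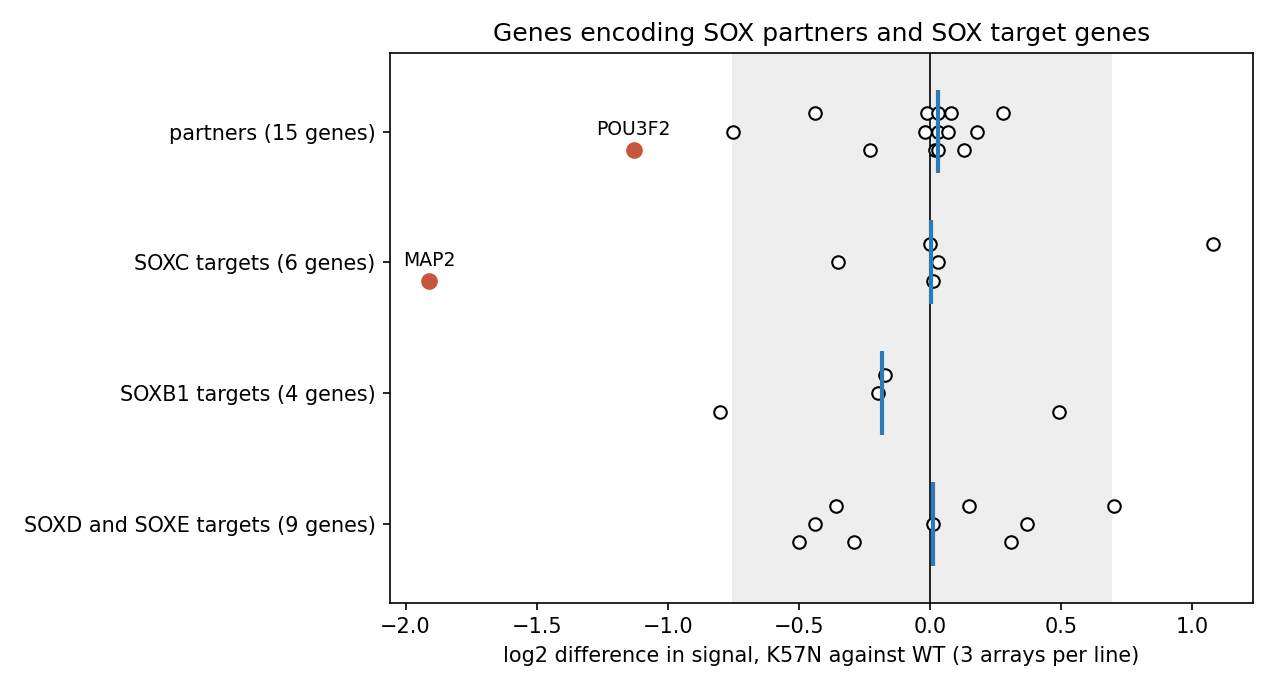
Log2 difference between K57N and WT, 3 arrays per line, for the tested genes of 4 lists of SOX partners and targets. Each circle is 1 gene, filled where limma called it, blue lines are medians of the lists, and the grey band spans the 5th to the 95th percentile of all genes tested. POU3F2 and MAP2 are the filled genes, and the 4 medians lie between -0.18 and 0.03.

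The identity of the cells was checked with markers. Of 8 genes known from HEK293 cells, VIM, KRT8, KRT18, ENO2, LHX1 and PAX2 were well above background on all 9 arrays, and the neurofilament genes INA and NEFM were not. None of the 6 was called in any comparison. KRT18 and LHX1, however, had K57N arrays above all WT arrays. KRT18 had 2 probes, which differed between K57N and WT by 0.72 ± 0.21 and 0.84 ± 0.19 (SE, n = 3), and LHX1 differed by 0.99 ± 0.36. LHX1 had values of 2.57, 2.68 and 2.71 in WT, 2.73, 3.01 and 2.97 in F53S, and 3.92, 4.30 and 2.72 in K57N cells, so 1 K57N array was close to WT. The other 4 markers overlapped between K57N and WT, and the part of these shifts in the SOX values was not tested. Of 8 markers of leukocytes, endothelium, hepatocytes and heart muscle, ALB was not above background on any array, and CD3E, CDH5, APOA1 and PTPRC passed the background filter with mean values between -5.06 and -2.40. None of those 4 was called in any comparison. CD3E was nevertheless over 2-fold lower in K57N than in WT. Each of its K57N arrays lay below every WT array, the closest by a small margin, and its F53S arrays overlapped the WT arrays. The arrays of APOA1, CDH5 and PTPRC overlapped between K57N and WT. PECAM1, MYH7 and TNNT2 did not pass the filter. For MYH7, 1 of its 2 probes had K57N and F53S arrays below all WT arrays, with no K57N array well above background. For PECAM1, an endothelial marker, 1 of its 3 probes was well above background on 2 K57N arrays and on no WT or F53S array. Its values were -5.02, -2.90 and -4.55 in the K57N arrays and between -7.45 and -5.78 in the other 6. With the WT arrays set as the K57N arrays were for SOX12, K57N was 1.53-fold higher than WT. The other 2 probes of PECAM1 were not above background on any array. Of the 8 markers, 5 (APOA1, CD3E, CDH5, PTPRC and TNNT2) were above background on at least 1 array in every line, while MYH7 was so in WT and F53S and PECAM1 in K57N. The linear signal summed over the brightest probe of each of the 8, relative to the 75th percentile, ranged from 0.489 to 0.930 in WT, 0.345 to 0.931 in F53S and 0.483 to 0.724 in K57N. The part of other cell types in the SOX values was not tested. MAP2K1, the gene of the transgene, had a mean of 2.37 in the WT line, 2.45 in F53S and 2.85 in K57N, and it was not called (K57N minus WT 0.48 ± 0.13, SE, n = 3). Whether its probe also detects the RNA of the transgene is not given in the sources used here. Arrays had between 23714 and 29324 probes well above background, with the lower counts on slide 1, and the median gene was higher on slide 1 by a log2 value of 0.26.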

How the data were processed

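RNA of HEK293 cells carrying HA-MEK1 WT, F53S or K57N was measured on 9 Agilent 8x60K arrays with 1 dye, 3 per line, grouped by the labels. For each array the authors deposited the processed signal of Agilent Feature Extraction 10.10.1.1 (named in the submitters' processing notes), an intensity after background subtraction with no scaling between arrays. A further deposited table holds log2 values, which equal the log2 of that intensity less 1 constant per array, within 0.02 for 100% of the probe values compared.

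Here the log2 intensity less the 75th percentile of the array over spots other than controls was used. Spots flagged as uneven or outliers were left out and repeated spots averaged. A probe was tested if it stood well above background on each of the 3 arrays of 1 or more lines, and a gene was read from its probe with the highest mean signal. Tests used R 4.3.3 with limma 3.58.1 (a mean for each line, all 9 arrays in 1 fit, Benjamini-Hochberg over all probes tested) and data.table (version 1.17.8), and figures used matplotlib 3.10.9 and pandas 2.3.3 under Python 3.11.15. The procedure was tested on simulated data. The median SE of a difference was 0.29. The number of arrays limits the precision, and p-values measure the spread between experiments on 1 line each.

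After removal of the line means, arrays with the same replicate number correlated with r between 0.35 and 0.88. Replicate 1 of each line was on slide 1 and the other replicates on slide 2. A shared slide and a shared experiment can therefore not be told apart. Arrays with different numbers were not compared, and the labels do not say that equal numbers mark 1 experiment. The members and the lists were chosen with earlier results of these data known. The genes named are every member, list genes that were called plus up to 4 of each list with the highest mean signal, the 5 highest and 5 lowest correlations with SOX11, and MAP2K1. Partners whose K57N arrays all lay below the WT arrays are also named. The sequences and their windows are from RefSeq. Probe positions are those the array annotation gives on hg19. Alternative settings were quantile normalization, normexp (offset 50), dim probes kept, a gene taken as the mean of its probes, only probes above background on each of the 9 arrays, 2 lines at a time, a replicate block, a slide block, slide 2 alone, the deposited values, each array left out, and the methods' t-test before and after adjustment.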

Additional observations from a re-analysis of the deposited data

How the results depend on the processing

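No member whose difference was called changed direction under any alternative run. The SOXC genes minus the other members gave -1.28 for K57N against WT and -1.05 for K57N against F53S. With normexp these were -0.86 and -0.66, and with a filter on all 9 arrays, which removes SOX12, they were -1.13 and -0.83. Without a filter, which adds SOX5, the K57N minus WT value was -1.14 and the F53S minus WT value -0.10 (-0.23 as reported). On slide 2 alone the K57N minus WT value was -1.44. Of the 2 members called lower in K57N than in F53S, 1 was called with normexp and 1 with the filter on all 9 arrays. The count of members called higher in K57N than in F53S was 1 as reported and 0 without a filter. The methods' t-test with adjustment called 0 members higher in K57N than in WT, and 0 lower and 0 higher than in F53S. Slide 2 alone called 2 members higher in K57N than in WT, and leaving out 1 array gave 0 to 1 members higher in K57N than in F53S. Of the 2 list genes called lower in K57N than in WT, 1 was called with normexp (MAP2) and 1 (POU3F2) with quantile normalization, the filter on all 9 arrays, the deposited table and the adjusted t-test, 0 without a filter, and 1 to 2 when an array was left out. With the replicate block, the slide block or slide 2 alone, 1 list gene was called higher in K57N than in WT. With these 3 settings or the unadjusted t-test, 1 list gene was called lower in K57N than in F53S, and slide 2 alone called 1 higher. The replicate block changed no call of a member or list gene other than SOX3, MAP2 and TUBB3. The causes were not tested. Signal over background limits SOX12 and SOX5.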
